A study of Mus musculus with 12 samples.

Results

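The set described here holds 32 genes of the cellular response to low oxygen: the hypoxia-inducible factor (HIF) subunits, the enzymes that sense oxygen and mark the factor for destruction, and genes that HIF switches on. Membership was by symbol from a fixed list, and all 32 symbols were among the 24346 in the expression tables. Of these, 29 passed the filter on low values (at least 1 FPKM in at least 3 libraries), while the second alpha subunit gene Epas1, the stanniocalcin gene Stc2 and the carbonic anhydrase gene Car12 did not. FPKM are fragment numbers scaled to transcript length and library size, so levels below are per length.

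Bulk RNA-seq was carried out on tumour-associated macrophages from mice with an Arg1-RFP reporter, in which red fluorescence reads out arginase 1, an enzyme that breaks down arginine. Tumours were grown from B16F10 melanoma cells or from MC38 colon carcinoma cells. Cells bearing CD45, MHCII, F4/80 and CD11b were kept, those with the lymphoid or NK markers B220, CD90.2 and NK1.1 or the myeloid markers Ly6G and Ly6C were left out, and the rest were split into RFP+ and RFP- cells. This gave 4 groups of 3 libraries: B16F10 RFP+, B16F10 RFP-, MC38 RFP+ and MC38 RFP-. The reporter was the only allele named for the mice, all groups came from tumour-bearing animals, and no drug, age or time after injection was given. Library numbers in the titles are 12, 11 and 3 in B16F10 and 1, 2 and 3 in MC38, each in both gates, and values below follow that order. The number of mice is stated as 3, and which mouse gave which library is not labelled. P-values therefore measure the spread from library to library, part of which may be technical.

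HIF is a dimer of an oxygen-controlled alpha subunit and a stable beta subunit. In the presence of oxygen, prolyl hydroxylases modify the alpha subunit, the VHL ubiquitin ligase binds it, and it is degraded; when oxygen is scarce it accumulates, pairs with the beta subunit and binds short ACGTG or GCGTG sequences near its targets. Those targets shift cells toward glucose use, spare or remove mitochondria, store lipid, modify collagen and call in blood vessels. Macrophages gather in poorly oxygenated tumour regions, and both HIF alpha subunits are known to act in them.

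The upstream bases of 6 members that were higher in RFP+ cells are shown because that short HIF-binding sequence, if present, can be read in them directly. The 250 bases before the first listed start were taken from RefSeq (build GRCm38.p6), written 5′ to 3′ on the gene's strand. Capitals mark ACGTG or GCGTG, or their reverse complements CACGT and CACGC for the other strand. The palindrome CACGTG, the E-box of other factors, contains ACGTG on both strands and occurs once, in Bnip3.
Egln3, chr12:54203875-54204124, minus strand: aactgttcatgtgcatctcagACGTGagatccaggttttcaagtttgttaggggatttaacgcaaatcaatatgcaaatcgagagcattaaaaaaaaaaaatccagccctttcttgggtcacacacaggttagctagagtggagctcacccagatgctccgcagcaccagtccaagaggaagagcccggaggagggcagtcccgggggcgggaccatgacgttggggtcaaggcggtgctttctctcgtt
Adm, chr7:110627407-110627656, plus strand: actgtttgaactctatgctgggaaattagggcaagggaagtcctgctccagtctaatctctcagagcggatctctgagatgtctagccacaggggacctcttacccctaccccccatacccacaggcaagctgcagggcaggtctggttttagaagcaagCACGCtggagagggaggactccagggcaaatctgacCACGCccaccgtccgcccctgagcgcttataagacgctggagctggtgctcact
Slc2a1, chr4:119108495-119108744, plus strand: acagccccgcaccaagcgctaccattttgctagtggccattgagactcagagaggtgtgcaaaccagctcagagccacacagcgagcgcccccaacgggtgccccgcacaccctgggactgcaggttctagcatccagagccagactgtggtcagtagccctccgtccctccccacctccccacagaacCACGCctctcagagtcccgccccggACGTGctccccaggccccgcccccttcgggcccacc
Bnip3, chr7:138909507-138909756, minus strand: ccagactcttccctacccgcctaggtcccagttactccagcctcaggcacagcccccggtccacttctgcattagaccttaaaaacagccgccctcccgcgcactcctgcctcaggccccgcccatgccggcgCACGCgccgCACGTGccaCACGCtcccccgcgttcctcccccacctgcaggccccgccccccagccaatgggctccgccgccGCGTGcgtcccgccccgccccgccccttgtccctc
Hilpda, chr6:29272238-29272487, plus strand: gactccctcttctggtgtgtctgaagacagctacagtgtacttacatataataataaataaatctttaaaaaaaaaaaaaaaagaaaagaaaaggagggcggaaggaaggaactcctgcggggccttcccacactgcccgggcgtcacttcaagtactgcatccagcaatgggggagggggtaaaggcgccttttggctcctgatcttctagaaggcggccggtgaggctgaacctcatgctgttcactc
P4ha2, chr11:54100674-54100923, plus strand: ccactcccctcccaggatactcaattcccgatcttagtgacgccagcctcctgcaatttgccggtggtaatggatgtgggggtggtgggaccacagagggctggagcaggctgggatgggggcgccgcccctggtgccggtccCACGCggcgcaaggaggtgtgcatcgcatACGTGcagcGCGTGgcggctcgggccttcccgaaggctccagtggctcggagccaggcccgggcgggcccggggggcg

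The 6 had the smallest adjusted p between the gates, without the library number as a block, among 10 members past the threshold without or with it. Stretches inside the span of their own gene were left out, a step not in the initial plan. That passed over Ankrd37, with 4 matches, and Mxi1, with 0 before its first start. All 6 stretches lie outside the transcribed span of their own gene in RefSeq, while those of Adm and Slc2a1 overlap the predicted or non-coding genes Gm28863 and Gm52706. Bnip3 held 5 matches, the nearest starting 35 bases before the transcript, and P4ha2 held 3, the nearest starting 69 bases before it. In Slc2a1 the matches began 61 and 36 bases before the start, in Adm 90 and 54, and in Egln3 the single match lay 229 bases away. Hilpda held none before its first start, whereas the 250 bases before its second listed start, at position 29272626, held 3. Of the 27 members with a RefSeq promoter entry (Ero1l under its current symbol Ero1a), 21 held a match on either strand, which is 77.8% against 38.6% of 27025 genes. Among the 10 members past the threshold in a comparison of the gates, 7 held one, and among the other 17 members with an entry 14 did. Many members were listed as HIF targets, so their share of matches is not independent of the list. The 27025 genes were not limited to those kept by the filter. A match describes letters in this window and does not show binding.

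The sort was checked on marker genes. In B16F10, Arg1 stood at 724 ± 167 FPKM with the reporter on and at 81.5 ± 38.2 FPKM with it off (SD, n = 3), and it was 473 ± 79.7 against 51.7 ± 9.74 FPKM in MC38. All 14 macrophage core markers, such as Csf1r and C1qa, were detected in every group, with summed levels of 7226 to 15402 FPKM (B16F10 RFP+), 6182 to 14261 FPKM (B16F10 RFP-), 37608 to 38838 FPKM (MC38 RFP+) and 28774 to 31452 FPKM (MC38 RFP-). In the B16F10 libraries, transcripts of pigment cells were abundant too: the 9 melanocytic markers summed to 8221 to 10795 FPKM in RFP+ and 8248 to 10797 FPKM in RFP- cells, against 11.2 to 19.4 FPKM in MC38. Of 7 epithelial markers 6 were under 1 FPKM in every group, with Krt19 and Cldn3 at 0 in all libraries. The remaining marker, Cdh1, was 6.11 to 11.7 FPKM in the MC38 libraries and 0.0201 to 1.88 FPKM in the B16F10 libraries. The 7 fibroblast markers summed to 55.9 to 64.7 FPKM in MC38 RFP+ and 48.3 to 60.4 FPKM in RFP- cells. In B16F10 they summed to 1.87 to 2.17 and 2.27 to 3.46 FPKM. Dcn (30.2 to 42.2 FPKM) and Col3a1 (9.96 to 27.8 FPKM) made up most of the MC38 sums. Lum went the other way, at 1.42 to 2.37 FPKM in B16F10 and 0 to 0.792 FPKM in MC38. Summed FPKM per library ran from 614875 to 699948 in 11 libraries and was 815591 in B16F10 RFP- number 12, which also had the most genes at 0 (10597, against 8479 to 10081 in the others), and results that turn on that library are given without it. Read numbers are not given in these tables, so the counting error behind a value is unknown. In bulk RNA, fewer cells of one kind and less RNA per cell cannot be told apart.

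The first question was whether macrophages that express Arg1 also differ in hypoxia genes. Across both tumours, 3 members rose in RFP+ cells: Egln3, an oxygen-sensing prolyl hydroxylase that HIF itself induces, Adm, which encodes the vasodilator peptide adrenomedullin, and Hilpda, which blocks the breakdown of lipid droplets. Their mean log2 differences over both tumours, on the log2(FPKM + 1) scale, were 1.24 ± 0.15, 1.32 ± 0.19 and 1.09 ± 0.12 (SE), with limma adjusted p of 0.00195, 0.0099 and 0.00168. Adjusted p-values here and below are from limma over all 11808 genes kept, two-sided, with a threshold of 0.05. These 3 of 29 members compare with 0.339% of all genes that rose and 0.11% that fell, and 0 members fell. The median log2 difference of the 29 members was 0.34, and that of all genes kept was -0.0023. Libraries were also scaled to the mean log2(FPKM + 1) of the macrophage core genes. Relative to the average library that mean was 1.06, 1.04 and 1.24 in MC38 RFP+ and 0.957, 1.02 and 1.06 in RFP- libraries. In B16F10 it was -0.661, -1.44 and -0.976 against -0.735, -1.63 and -0.926. After this scaling Adm alone passed on the mean of both tumours, while Egln3 and Hilpda kept log2 differences of 1.12 and 0.998.

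Libraries with the same number in both gates varied together, so the number was also fitted as a block. With the block, 10 members rose on the mean of both tumours: Egln3, Vegfa, Adm, Slc2a1, Bnip3, Hilpda, P4ha2, Ero1l, Mxi1 and Ankrd37 (1.32% of all genes rose and 0.601% fell). No member fell at the threshold. At an unadjusted p under 0.05, 16 members were higher and 2, Egln2 and Pfkfb4, were lower, where 13.3% of all genes had such a p in either direction. The calls of Egln3, Adm, Hilpda and Bnip3 held in the block fit whichever pair of libraries was left out, while the count dropped from 10 to 4 without any 1 of the MC38 pairs and to 5 without the B16F10 number 3 pair. The B16F10 number 3 libraries had the most neutrophil marker RNA (366 FPKM summed in RFP+ and 841 FPKM in RFP- cells, against 32.9 to 126 FPKM in the other B16F10 libraries), and its part in these calls was not tested.

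Within B16F10 alone, Adm and Egln3 rose (2 of 29 members, against 0.127% of all genes) and 0 members fell (0.0508%). With the block Hilpda joined them, giving 3 members (0.83% of all genes rose and 0.525% fell). Within MC38 alone, Hilpda rose (1 of 29, against 0.0254% of all genes) and 0 fell, as for all genes (0%). With the block Egln3, P4ha2 and Bnip3 rose as well, giving 4 members (0.356% of all genes rose and 0.0847% fell). Leaving out 1 library ended the calls of both genes in B16F10 or of 1 of them in every case but RFP- number 11, and the call of Hilpda in MC38 ended without RFP+ number 2 or RFP- number 1.

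**Figure D1:**
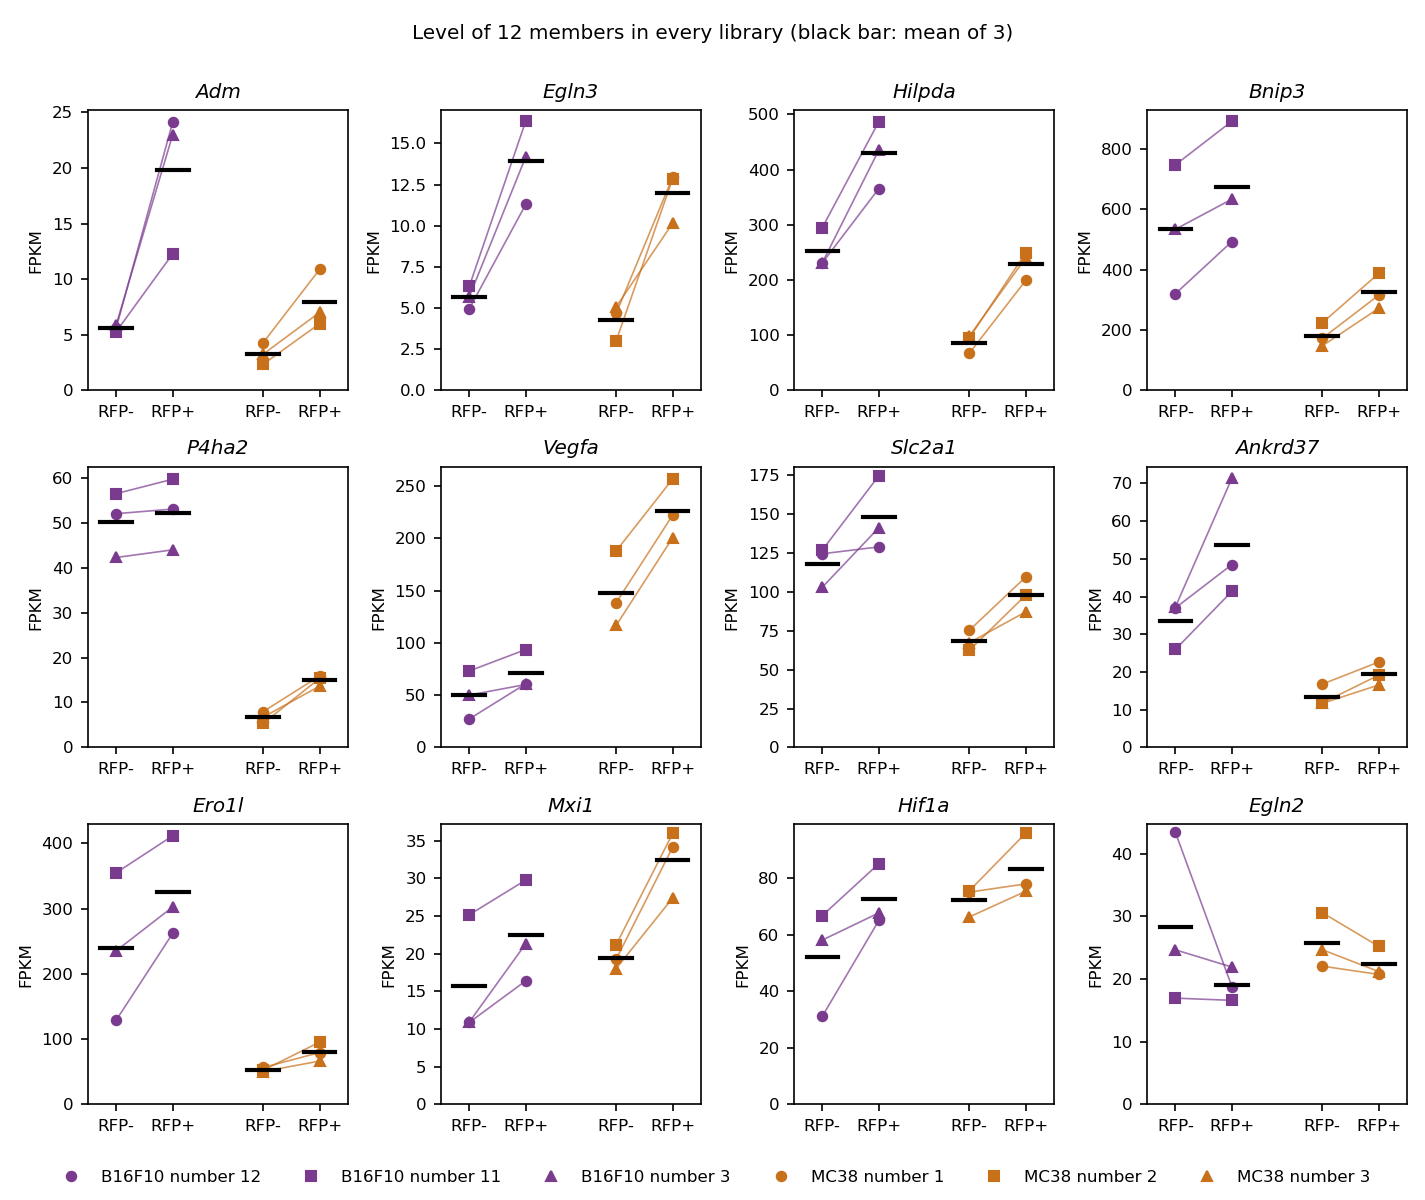
FPKM of 12 members in each of the 12 libraries (linear axes from 0), by tumour and gate; points are libraries, lines join libraries with the same title number and black bars are means of 3. Adm, Egln3 and Hilpda are higher in all RFP+ than in all RFP- libraries of the same tumour, while P4ha2 separates the gates in MC38 and overlaps in B16F10.

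Among the factor's own subunits, neither gene passed the test between the gates. Hif1a, the oxygen-controlled subunit, was 65, 85 and 67.6 FPKM in B16F10 RFP+ and 31.2, 66.7 and 58.1 FPKM in RFP- libraries. In MC38 it was 77.9, 95.8 and 75.3 against 75, 75.4 and 66.2 FPKM. RFP+ was the higher library in 6 of 6 pairs, with the widest gap at B16F10 number 12, but the groups overlapped in both tumours and the mean log2 difference was 0.36 ± 0.16 (adjusted p = 0.647, and 0.174 with the block). Arnt, the stable beta subunit, lay between 13.9 and 17.6 FPKM in all 12 libraries, with a mean log2 difference of -0.028 ± 0.10. Epas1, the alpha subunit better known from endothelium, was 1.25, 0.942 and 0.947 FPKM in B16F10 RFP+ and 0.378, 0.831 and 0.319 FPKM in RFP- libraries, and 0.00506 to 0.109 FPKM in MC38, too low for the filter.

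The oxygen sensors did not move together. Egln3 was 11.3, 16.4 and 14.2 FPKM in B16F10 RFP+ and 4.96, 6.32 and 5.69 FPKM in RFP- libraries. In MC38 its levels were 12.9, 12.8 and 10.2 against 4.68, 3.01 and 5.07 FPKM. Every RFP+ library was above every RFP- library, in either tumour, and the log2 difference was 1.16 ± 0.21 in B16F10 (limma adjusted p = 0.0499, and 0.0155 with the block) and 1.32 ± 0.21 in MC38 (0.0672, and 0.0163 with the block). Egln1, the hydroxylase that acts on the alpha subunit in most cells, was 7.42, 10.5 and 8.37 against 5.82, 15.8 and 7.89 FPKM in B16F10, where RFP- number 11 was the highest library and the groups overlapped. In MC38 it was 4.25, 3.4 and 4.53 against 2.9, 3.07 and 3.28 FPKM, a gap without overlap that did not pass the test (log2 0.30 ± 0.28).

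Egln2, the third hydroxylase, went the other way in each pair, with means of 19.1 ± 2.67 against 28.4 ± 13.6 FPKM in B16F10 and 22.4 ± 2.47 against 25.8 ± 4.37 FPKM in MC38. B16F10 RFP- number 12 was its highest library, and the mean log2 difference did not pass (-0.32 ± 0.19, limma adjusted p = 0.734). The asparaginyl hydroxylase gene Hif1an, whose product blocks the coactivator contact of HIF, ranged from 4.6 to 9.78 FPKM with no common direction (log2 0.036 ± 0.16). Vhl, the substrate receptor of the ligase, was 22.9, 31.9 and 30.1 against 18.3, 29.5 and 29.6 FPKM in B16F10 and 21.9, 15.5 and 17.9 against 19.8, 19.1 and 17.3 FPKM in MC38, and its gates overlapped in both tumours.

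Of the secreted factors, Adm showed the largest log2 gate difference of the set in B16F10. It was 24.1, 12.3 and 23 FPKM in RFP+ and 5.63, 5.29 and 5.91 FPKM in RFP- libraries there, so the RFP- values lay close together while RFP+ number 11 stood below the other RFP+ libraries. In MC38 the levels were 10.9, 6.01 and 7.02 against 4.29, 2.35 and 3.25 FPKM, again without overlap. The log2 difference was 1.60 ± 0.27 in B16F10 (limma adjusted p = 0.0431, and 0.00275 with the block) and 1.05 ± 0.27 in MC38 (0.413, and 0.0581 with the block). Vegfa, the main growth factor for blood vessels, was 60.9, 93.7 and 60.2 against 27.2, 73.2 and 50.1 FPKM in B16F10 and 222, 257 and 201 against 138, 188 and 117 FPKM in MC38. RFP+ was higher in 6 of 6 pairs, with the gates apart in MC38 and overlapping in B16F10, and the mean log2 difference of 0.61 ± 0.21 passed with the block alone (adjusted p = 0.0244, against 0.475). Stc2, a secreted glycoprotein, was at 0 in 5 of the 6 B16F10 libraries and reached 0.807 FPKM at most, in MC38 RFP+.

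Genes of glucose use divided. Slc2a1, the glucose transporter GLUT1, was 129, 175 and 141 FPKM in B16F10 RFP+ and 125, 127 and 103 FPKM in RFP- libraries. In MC38 it was 109.6, 97.9 and 87.2 against 75.2, 62.4 and 67.2 FPKM. The gates did not overlap in either tumour, and the mean log2 difference of 0.42 ± 0.11 passed with the block (limma adjusted p = 0.0357, against 0.166). Pfkfb4, a kinase and phosphatase that sets the level of the glycolytic activator fructose bisphosphate, was lower in RFP+ in 6 of 6 pairs, at 6.5, 4.31 and 6.12 against 6.61, 5.05 and 12.9 FPKM in B16F10 and 18.4, 20.0 and 20.7 against 26.2, 22.7 and 23.5 FPKM in MC38. That difference did not pass (log2 -0.34 ± 0.18, adjusted p = 0.72, and 0.33 with the block).

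Its relative Pfkfb3 was 20.4, 10.8 and 23.1 against 11.1, 13.6 and 15.7 FPKM in B16F10 and 43.9, 41.8 and 34.8 against 39.5, 37.9 and 34.5 FPKM in MC38, with RFP+ lower at B16F10 number 11. Pdk1, the kinase that keeps pyruvate out of mitochondria, was 32.9, 37.5 and 43.4 against 19.6, 42.7 and 33.3 FPKM in B16F10 and 20.8, 23.3 and 18.8 against 16.9, 18.9 and 17.8 FPKM in MC38, again with overlapping gates in both. Ak4, a mitochondrial adenylate kinase, was 16.2, 18.8 and 16 against 10.6, 17.5 and 13 FPKM in B16F10, with overlap, and 4.42, 3.2 and 3.79 against 2.52, 1.94 and 1.72 FPKM in MC38, without. Its mean log2 difference of 0.48 ± 0.14 missed the threshold (limma adjusted p = 0.311, and 0.0948 with the block). Car12, a membrane carbonic anhydrase, stayed below 0.77 FPKM in every library but B16F10 RFP- number 11, which held that value.

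Among genes acting on mitochondria and lipid, Hilpda had the smallest p of the set on the mean of both tumours. It was 366, 487 and 436 FPKM in B16F10 RFP+ and 231, 295 and 231 FPKM in RFP- libraries. In MC38 it was 199, 249 and 240.1 against 67, 94.7 and 97.9 FPKM. Gates were apart in both tumours, with a log2 difference of 0.76 ± 0.17 in B16F10 (limma adjusted p = 0.167, and 0.00713 with the block) and 1.41 ± 0.17 in MC38 (0.011, and 0.000553 with the block). Bnip3, a receptor that targets mitochondria for autophagy, was 494, 893 and 634 against 320.5, 748 and 534 FPKM in B16F10 and 316, 388 and 272 against 173, 224 and 148 FPKM in MC38. Its gates overlapped in B16F10 and not in MC38, where the log2 difference of 0.85 ± 0.29 passed with the block (adjusted p = 0.0113, and 1 without it).

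The related receptor gene Bnip3l was 86.5, 116 and 103 against 41.7, 111 and 78 FPKM in B16F10 and 59.9, 56.8 and 47.9 against 43.6, 48.9 and 38.8 FPKM in MC38. RFP+ was the higher library in 6 of 6 pairs, but the gates overlapped and the mean log2 difference of 0.41 ± 0.19 did not pass (limma adjusted p = 0.669, and 0.146 with the block). Higd1a, a small protein of the respiratory chain, was 170.5, 335 and 211 against 213, 331 and 204 FPKM in B16F10 and 70.9, 66.8 and 60.6 against 55.6, 62.8 and 44 FPKM in MC38, with a mean log2 difference of 0.11 ± 0.17.

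Among the enzymes of collagen and protein folding, P4ha2, a catalytic subunit of collagen prolyl hydroxylase, separated the gates in MC38 and not in B16F10, though the difference between the tumours did not pass its own test, given below. In MC38 it was 15.9, 15.4 and 13.6 FPKM in RFP+ and 7.97, 5.34 and 6.73 FPKM in RFP- libraries, without overlap (log2 1.07 ± 0.17, limma adjusted p = 0.0106 when blocked by number, 0.0843 otherwise). In B16F10 it was 53.1, 59.7 and 44 against 52, 56.5 and 42.3 FPKM, with fully overlapping gates (log2 0.054 ± 0.17). P4ha1, the other catalytic subunit, had means of 52.6 ± 7.6 against 42 ± 13.3 FPKM in B16F10 and 62.4 ± 4.99 against 49.4 ± 3.08 FPKM in MC38, and was higher in RFP+ in 6 of 6 pairs without passing (mean log2 0.34 ± 0.14).

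Ero1l, an oxidase that forms disulfide bonds in the endoplasmic reticulum, was 262, 412 and 303 against 129, 355 and 235 FPKM in B16F10 and 79.4, 95.4 and 66.4 against 56.6, 52.3 and 50.4 FPKM in MC38. Its mean log2 difference of 0.55 ± 0.20 passed with the block (limma adjusted p = 0.0342, against 0.526). Plod2, a lysyl hydroxylase of collagen, was 40.3, 51.2 and 43.1 against 31.7, 51.6 and 40.1 FPKM in B16F10 and 9.35, 9.46 and 7.32 against 9.15, 6.86 and 5.05 FPKM in MC38, with overlap in both.

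Of the stress and transcription genes, Ankrd37 and Mxi1 passed with the block on the mean of both tumours. Ankrd37, an ankyrin-repeat gene long used as a HIF target, was 48.5, 41.4 and 71.4 against 37, 26 and 37.2 FPKM in B16F10, where the gates were apart, and 22.6, 19.1 and 16.6 against 16.8, 11.8 and 11.7 FPKM in MC38, where they overlapped by a narrow margin (mean log2 0.58 ± 0.16, limma adjusted p = 0.014 with the block, 0.235 without). Mxi1, an antagonist of Myc, was 16.4, 29.8 and 21.3 against 10.9, 25.2 and 10.9 FPKM in B16F10 and 34.1, 36 and 27.4 against 19.3, 21.2 and 18 FPKM in MC38 (mean log2 0.63 ± 0.20, adjusted p = 0.0138 with the block, 0.384 without). The gates of Mxi1 were apart in MC38 only.

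Ndrg1, a stress-responsive gene, was 29.5, 39 and 34.3 against 20.7, 27.9 and 23 FPKM in B16F10, apart, and 14.7, 19.6 and 11 against 12.3, 8.69 and 8.03 FPKM in MC38, overlapping (mean log2 0.54 ± 0.15, limma adjusted p = 0.0535 when blocked by number, 0.282 otherwise). Ddit4, an inhibitor of mTOR signalling, was 6.21, 4.99 and 7.93 against 11.3, 4.38 and 9.44 FPKM in B16F10 and 2.11, 4.23 and 2.76 against 0.712, 1.53 and 1.45 FPKM in MC38. Its RFP+ mean was thus the lower one in B16F10, with overlap, and the higher one in MC38, without.

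The circadian and stress repressor gene Bhlhe40 was 178, 203 and 178 against 147, 191 and 176 FPKM in B16F10 and 69.6, 87 and 63.3 against 47.2, 78.9 and 46.8 FPKM in MC38, higher in RFP+ in 6 of 6 pairs by a small margin (mean log2 0.25 ± 0.14). Kdm3a, a histone demethylase, was 33.9, 50.4 and 33.1 against 19.3, 48.6 and 29.8 FPKM in B16F10 and 18.7, 16.8 and 16.9 against 19.4, 13.4 and 15.5 FPKM in MC38. Jmjd6, which belongs to the same oxygen-dependent enzyme family, was 73.1, 86.8 and 79.3 against 78.1, 96.2 and 68.7 FPKM in B16F10 and 35, 30.7 and 28.4 against 39.5, 29.2 and 24.6 FPKM in MC38. The gates overlapped for both genes in both tumours, with mean log2 differences of 0.23 ± 0.19 and 0.011 ± 0.13.

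**Figure D2:**
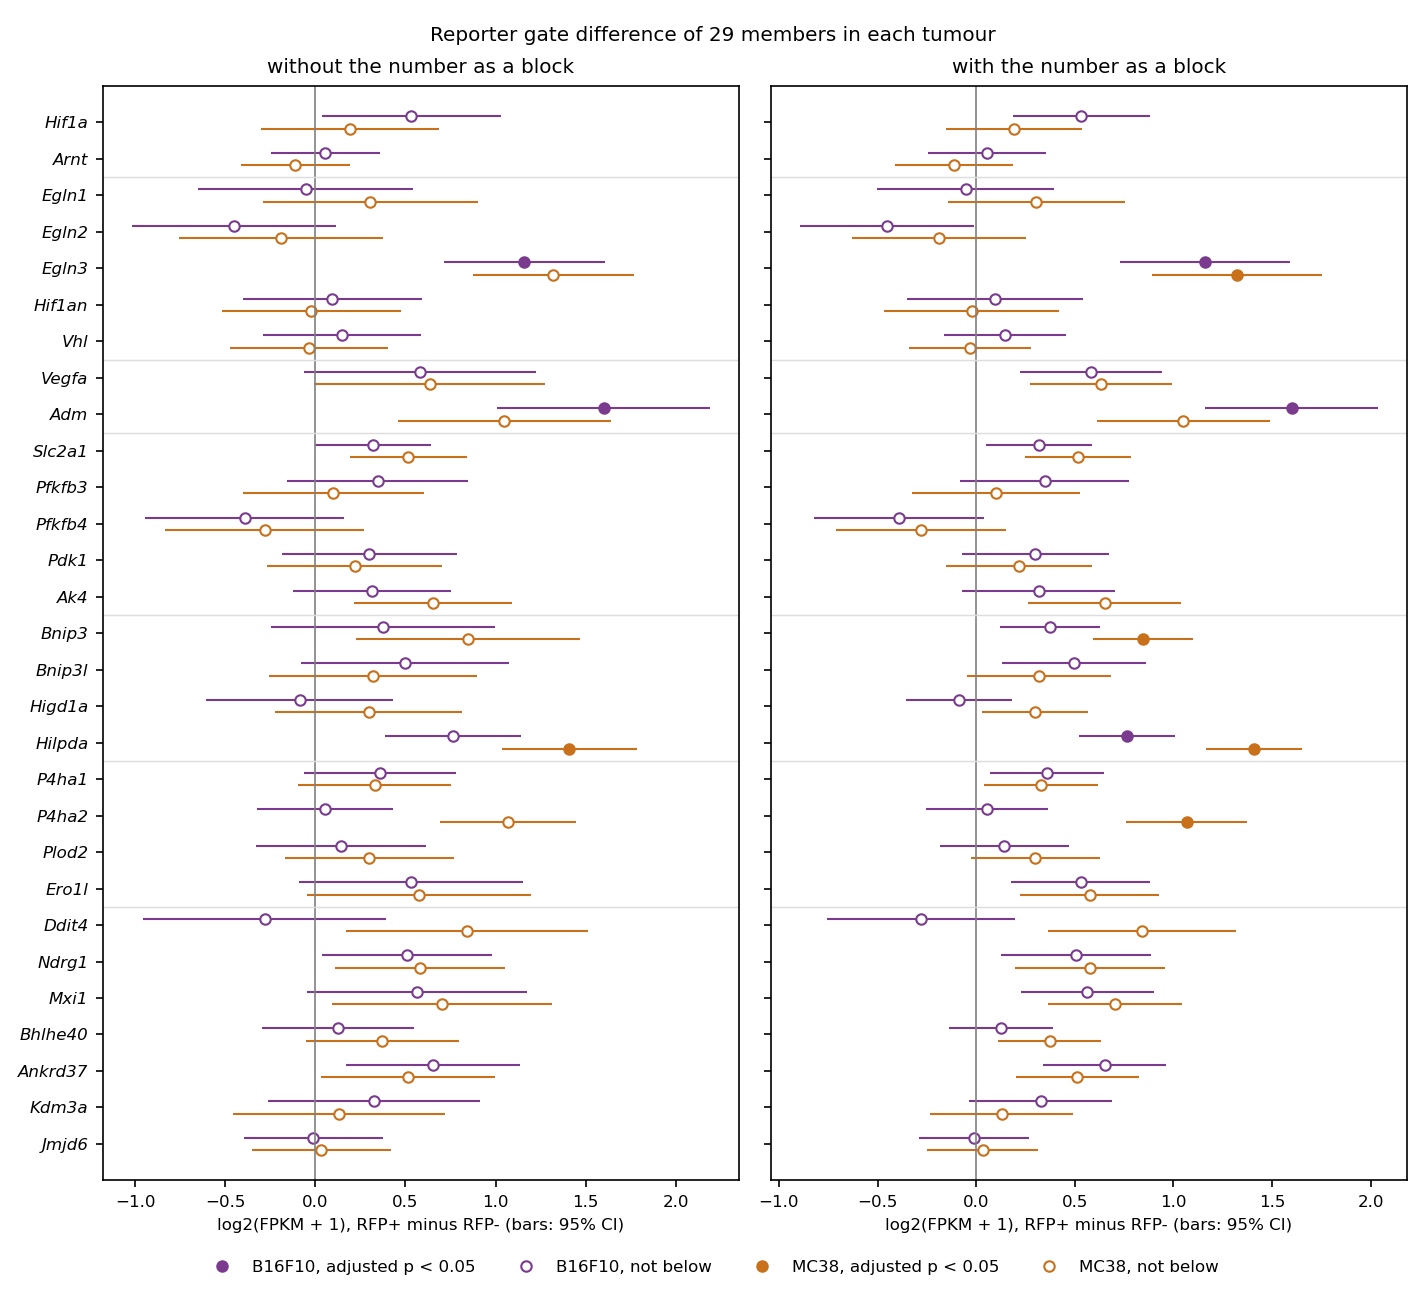
Log2(FPKM + 1) difference of RFP+ minus RFP- with its 95% confidence interval for the 29 members kept, by role, in B16F10 (purple) and MC38 (orange), without (left) and with (right) the library number as a block; filled points have a limma adjusted p under 0.05. Filled points are 3 on the left (Egln3 and Adm in B16F10, Hilpda in MC38) and 7 on the right, all above 0.

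Taken pair by pair, 16 of 29 members were higher in RFP+ in 6 of 6 pairs (4.52% of all genes) and 2, Egln2 and Pfkfb4, were lower in all (4.01%). In B16F10, 6 members had RFP+ libraries all above the RFP- libraries (Egln3, Adm, Slc2a1, Hilpda, Ndrg1 and Ankrd37, against 5.72% of all genes) and 0 the reverse (6.22%). In MC38 this held for 13 members (6.33%), among them Vegfa, Bnip3, P4ha1, P4ha2, Ero1l, Ddit4 and Mxi1, and Pfkfb4 alone was the reverse (4.98%). The sum of the 7 dendritic cell markers differed between the gates as well. It was 13.3 to 20.6 FPKM in B16F10 RFP+ against 28.8 to 53.8 FPKM in RFP-, and 27.1 to 50.5 against 44.5 to 86.4 FPKM in MC38. None was at 0 in all libraries of a group. Of these markers Ccr7, Batf3 and Xcr1 were lower in RFP+ in 6 of 6 pairs. Flt3 was higher in RFP+ only in B16F10 number 12 (0.266 against 0.049 FPKM) and Cd209a only in MC38 number 2 (7.16 against 5.82 FPKM). Clec9a was higher only in B16F10 numbers 12 and 11, at low values (0.0586 against 0.0154 and 0.0655 against 0.0397 FPKM). Zbtb46 was higher in B16F10 number 12 and in MC38 numbers 1 and 2, such as number 1 (1.22 against 1.05 FPKM). The part of dendritic cell RNA in the differences of the hypoxia genes was not tested.

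**Figure D3:**
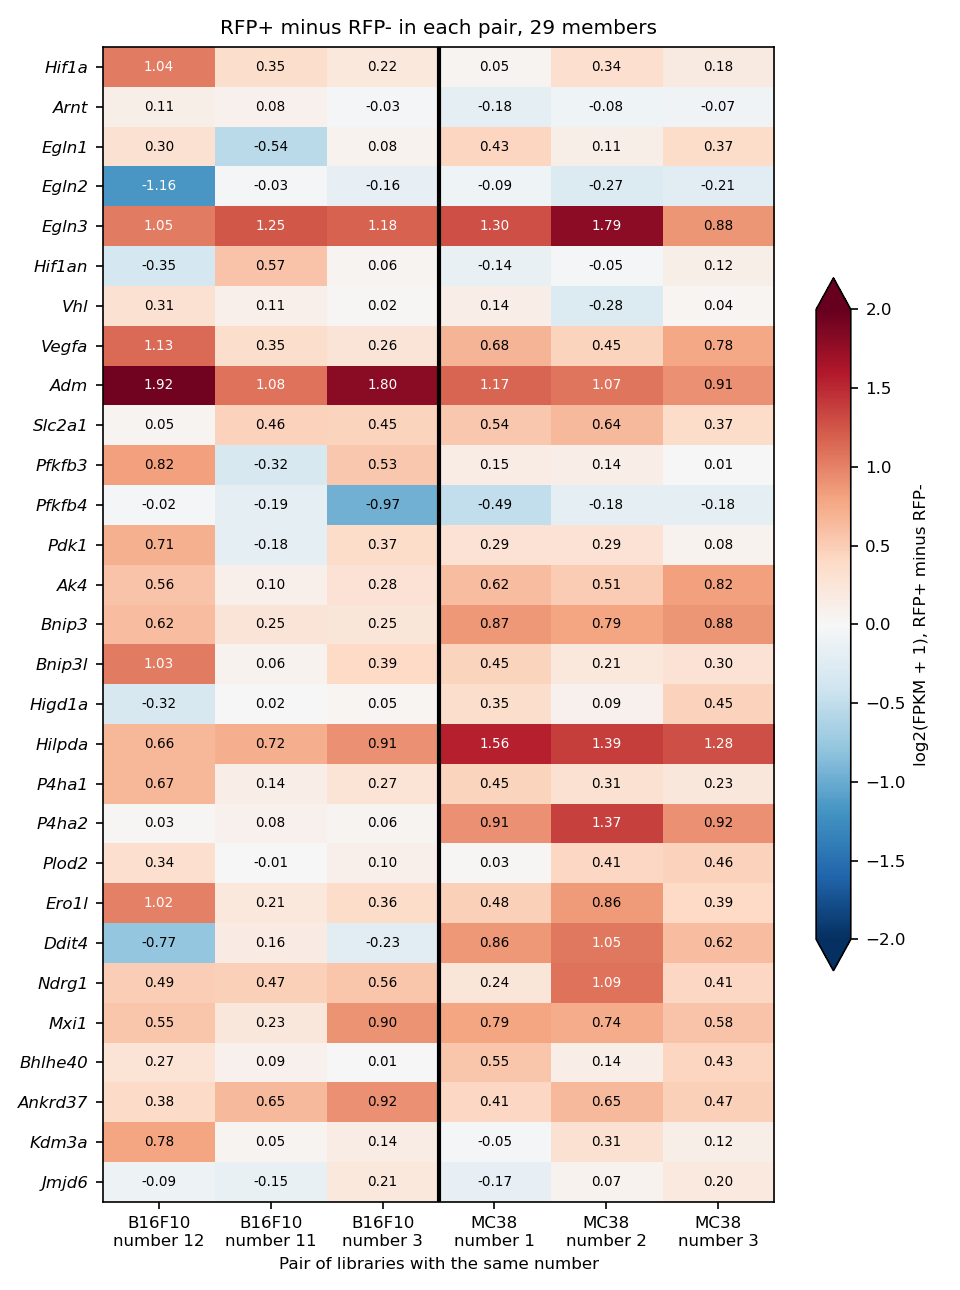
Log2(FPKM + 1) difference of RFP+ minus RFP- within each of the 6 pairs that share a library number, for the 29 members kept; red is higher in RFP+, blue lower, and the value is printed in each cell. Rows of Egln3, Adm and Hilpda are red throughout, Egln2 and Pfkfb4 blue throughout, and the B16F10 number 12 pair holds many of the wider gaps.

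Whether the gate difference itself differed between the tumours was tested as B16F10 minus MC38. In limma 0 of 29 members passed, without the block (0% of all genes, lowest member adjusted p = 0.895) or with it (0.0339%, lowest 0.298). At an unadjusted p under 0.05 there were 3 members without the block (3.85% of all genes), all with the smaller difference in B16F10: P4ha2 (log2 -1.01 ± 0.25, 95% interval -1.55 to -0.48), Ddit4 (-1.12 ± 0.44, -2.07 to -0.17) and Hilpda (-0.65 ± 0.25, -1.18 to -0.11). With the block there were 5 (8.55% of all genes), with Bnip3 and Higd1a added. Both gates of B16F10 held abundant melanocytic RNA, as given above, and its part in these smaller differences was not tested. For Egln3 the interval was -0.79 to 0.47 and for Adm -0.28 to 1.39, so differences between the tumours within these ranges are not excluded.

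A further list of 51 HIF regulators and targets held 45 genes past the filter. Of these, 1 rose on the mean of both tumours and 0 fell: Hmox1, the heme-degrading enzyme heme oxygenase, at 795 ± 244 against 300.0 ± 92.2 FPKM in B16F10 and 186 ± 40.2 against 106 ± 17.9 FPKM in MC38 (mean log2 1.09 ± 0.18, limma adjusted p = 0.0194). With the block Hmox1 rose in each tumour, and Nfil3, a transcription factor of immune cells, passed on the mean of both (log2 0.37 ± 0.14, adjusted p = 0.048 with the block, 0.544 without). The list's median log2 difference was -0.018 in B16F10 and 0.18 in MC38, against 0.32 and 0.33 for the members. The glycolytic genes on the list, among them Hk2, Pgk1 and Ldha, did not pass between the gates. In MC38 the RFP+ libraries lay above the RFP- libraries for Hk2 (17.6 to 20.4 against 11.1 to 17.1 FPKM) and Pgk1 (388 to 418 against 277 to 355 FPKM). The same held for Ldha (1848 to 2024 against 1475 to 1651 FPKM), as for 6.33% of all genes, while Pgam1 and Pfkp overlapped. In B16F10 the gates of Hk2, Pgk1 and Ldha overlapped, with the lower mean in RFP+ (45.6 against 47.3, 1501 against 1578 and 4161 against 4456 FPKM).

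The second question was how the level of these genes differed between tumours within a gate. In RFP+ cells 19 of 29 members were higher in B16F10 than in MC38 (35.2% of all genes) and 3 lower (20%). In RFP- cells 17 were higher (37.8%) and the same 3 lower (21.9%). The median log2 difference was 0.89 in RFP+ and 0.78 in RFP- for the members, against 0.23 for all genes kept in either gate. All of these are differences per FPKM in libraries whose melanocytic, fibroblast and macrophage core transcripts differ as given above. The part of tumour-cell or fibroblast RNA in them was not tested. Tumour-cell RNA cannot be told apart from tumour type because every B16F10 library carries it.

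Plod2, P4ha2, Ero1l, Ak4 and Higd1a had the largest log2 differences above 0 of the 29 members in each gate, while P4ha1 did not pass (-0.25 ± 0.20 in RFP+ and -0.28 ± 0.20 in RFP- cells). P4ha2 differed by a log2 of 1.73 ± 0.17 in RFP+ and 2.74 ± 0.17 in RFP- cells (limma adjusted p = 3.24e-06 and 4.99e-08), Plod2 by 2.24 ± 0.22 and 2.40 ± 0.22, and Ero1l by 1.99 ± 0.29 and 2.04 ± 0.29. Ak4 differed by 1.91 ± 0.20 and 2.25 ± 0.20, and Higd1a by 1.78 ± 0.24 and 2.16 ± 0.24. Bnip3 (1.02 ± 0.29 and 1.49 ± 0.29), Hilpda (0.90 ± 0.17 and 1.54 ± 0.17) and Slc2a1 (0.58 ± 0.15 and 0.78 ± 0.15) were higher in B16F10 by less. Egln1 (0.94 ± 0.28 and 1.30 ± 0.28), Bhlhe40 (1.35 ± 0.20 and 1.59 ± 0.20), Ankrd37 (1.39 ± 0.22 and 1.25 ± 0.22), Jmjd6 (1.32 ± 0.18 and 1.37 ± 0.18) and Ndrg1 (1.16 ± 0.22 and 1.23 ± 0.22) were higher in both gates too, as were Ddit4, Pdk1, Bnip3l and Kdm3a.

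Adm passed in RFP+ cells (1.20 ± 0.27, limma adjusted p = 0.00233) and not in RFP- cells (0.65 ± 0.27, adjusted p = 0.0569), and so did Vhl (0.59 ± 0.20, adjusted p = 0.0252, and 0.41 ± 0.20, adjusted p = 0.097). Whether these gates differ is the interaction tested above, in which neither passed. Egln3 did not pass in either gate (log2 0.20 ± 0.21 and 0.36 ± 0.21, with 95% intervals of -0.25 to 0.64 and -0.087 to 0.81). Nor did Hif1a, Arnt, Egln2, Hif1an, P4ha1 and Mxi1.

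The 3 members lower in B16F10 were Vegfa, by a log2 of -1.67 ± 0.30 in RFP+ and -1.62 ± 0.30 in RFP- cells, Pfkfb4 by -1.65 ± 0.26 and -1.54 ± 0.26, and Pfkfb3 by -1.17 ± 0.23 and -1.42 ± 0.23 (limma adjusted p of 0.000864 or less for all 6). The B16F10 and MC38 libraries of either gate did not overlap in any of them. When each library was instead scaled to the 14 macrophage core genes, the median of all genes moved to 1.97 in RFP+ and 1.94 in RFP- cells, and the log2 differences of these 3 turned above 0. That of Pfkfb3 in RFP+ cells passed (limma adjusted p = 0.0101), and the other 5 did not (adjusted p from 0.0645 to 0.355). Under this scaling 30 members passed the filter, Epas1 included, and all 30 lay above 0 in each gate. So did 94.5% of all genes in RFP+ and 94% in RFP- cells. At the threshold 28 members were higher in RFP+ and 27 in RFP- cells and 0 lower. The share of all genes past the threshold under this scaling is not given here. Relative to the median of all genes the 3 members remained low, Vegfa by a log2 of -1.52 and -1.48, Pfkfb3 by -1.09 and -1.34 and Pfkfb4 by -1.69 and -1.53. The direction of these genes against macrophage RNA therefore depends on the scaling.

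Of the 45 genes of the further list past the filter, 25 were higher in B16F10 in RFP+ cells (35.2% of all genes) and 7 lower (20%). In RFP- cells 25 were higher (37.8%) and 8 lower (21.9%). The largest in RFP+ cells were the carbonic anhydrase gene Car9 (119 ± 61.7 against 5.51 ± 0.42 FPKM in RFP+ cells, log2 4.09 ± 0.30), the receptor kinase gene Met (3.33 ± 0.56), the transferrin receptor gene Tfrc (2.62 ± 0.16) and the glycogen-branching enzyme gene Gbe1 (2.50 ± 0.33). In RFP- cells they were Car9 (3.90 ± 0.30), Met (2.82 ± 0.56), Gbe1 (2.72 ± 0.33) and the mitochondrial protein gene Fam162a (2.6 ± 0.24). The gate differences of these genes within B16F10 did not pass.

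**Figure D4:**
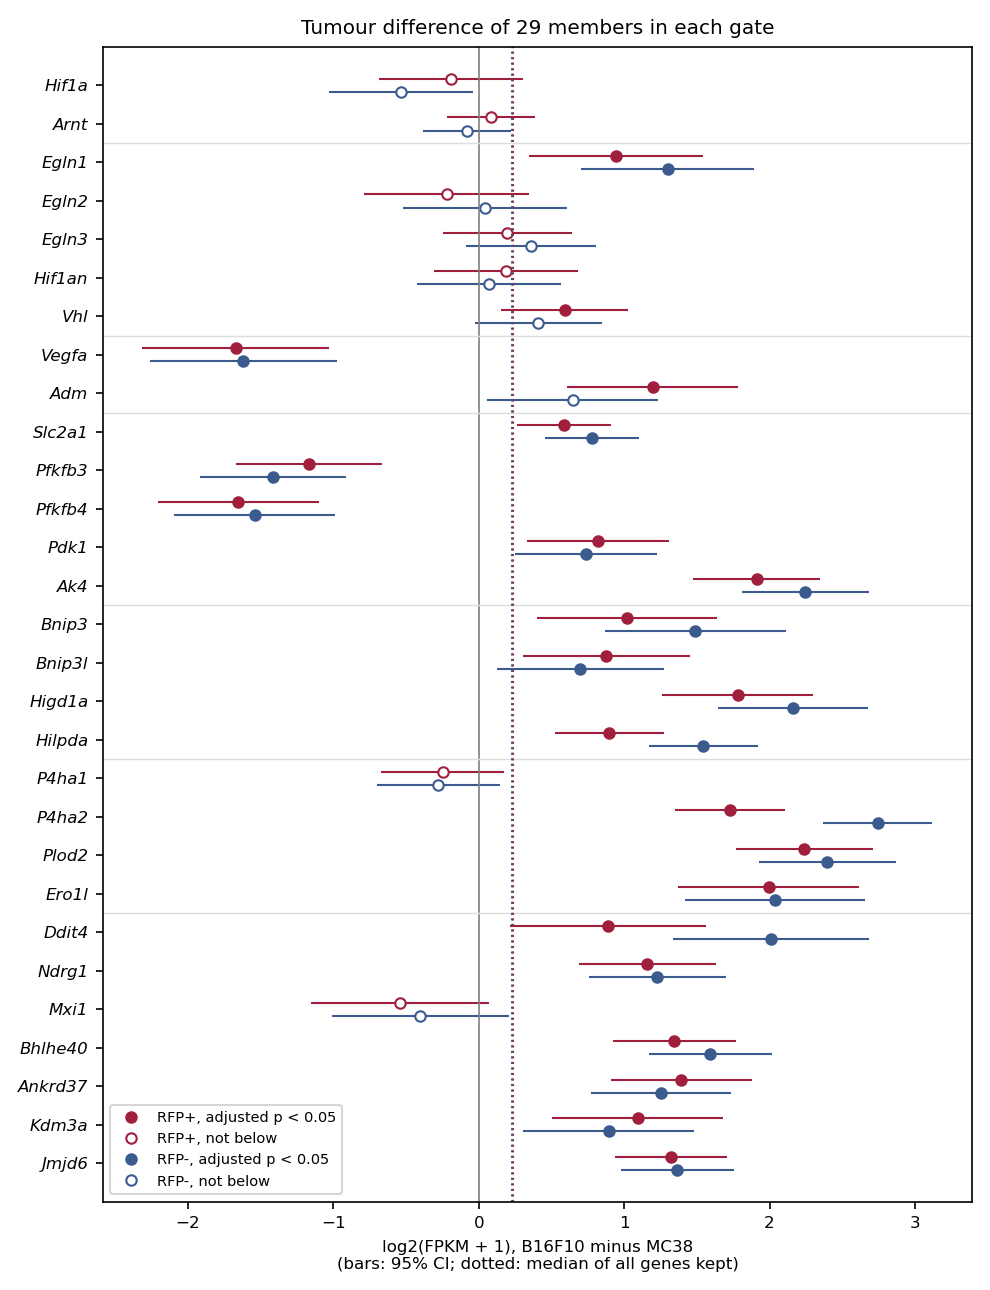
Log2(FPKM + 1) difference of B16F10 minus MC38 with its 95% confidence interval for the 29 members kept, in RFP+ (red) and RFP- (blue) cells; filled points have a limma adjusted p under 0.05 and the dotted lines mark the median of all genes kept (0.23 in both gates). Most members lie right of that median, with Vegfa, Pfkfb3 and Pfkfb4 on the left.

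Within B16F10 the members also varied by library number. This comparison was not in the initial plan, and members measured in the same library are not independent of each other. Number 11 was the highest of 3 in RFP+ as well as in RFP- cells for 20 of 29 members (69%), among them Bnip3, Ero1l, Higd1a and Vegfa, against 18.4% of all genes. Bnip3, for example, was highest at number 11 in RFP+ (893 FPKM) and RFP- cells (748 FPKM). Number 11 also had the least macrophage core RNA (7226 and 6182 FPKM summed in RFP+ and RFP- cells) and the most melanocytic RNA (10795 and 10797 FPKM). RFP- number 12 was the lowest of the 6 B16F10 libraries for 18 members (62.1%, against 31.5% of all genes), such as Hif1a, Vegfa and Ero1l. That library also stood apart in summed FPKM, as given above, and the part of this in its low values was not tested. Without it the members' median log2 gate difference in B16F10 was 0.12 in place of 0.32, and without RFP- number 11 it was 0.48. Without RFP- number 12 the count of members past the threshold was 0 in B16F10 and 3 on the mean of both tumours, and with the block but without the number 12 pair it was 4 and 10. The part of tumour-cell RNA in these values was not tested. Adm, Ankrd37, Egln2, Pfkfb3, Pfkfb4 and Ddit4 did not follow number 11, which was their lowest RFP+ library.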

How the data were processed

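Each library was deposited as 1 table of gene symbols with FPKM values, the unit per the file headers. RNA was taken with TRI Reagent, and cDNA and libraries were made with SMART-Seq HT and Nextera XT kits, per the labels' protocols. TopHat2 2.1.1, Bowtie2 2.2.8, SAMtools 0.1.18, Cuffdiff 2.2.1 and the mm10 build are named in the submitters' processing notes. The sources used here give no annotation, read filter, strand setting or scaling between libraries, so reads of overlapping antisense genes may not be separable.

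Values were analysed as log2(FPKM + 1), which understates the change of low genes, and a gene was kept when 3 or more libraries reached 1 FPKM, which left 11808 genes. One model of 4 group means was fitted with limma 3.58.1 (lmFit, eBayes with trend) in R 4.3.3, leaving 8 residual degrees of freedom, and p-values were adjusted over all genes kept by the Benjamini-Hochberg method. Tables and plots were made with jsonlite 2.0.0, Python 3.11.15, pandas 2.3.3, numpy 2.4.6 and matplotlib 3.10.9, and the fit was checked on simulated data.

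Across genes, the deviations of a library from its group mean were correlated between gates. For the 6 pairs that share a title number r was 0.228 to 0.443, above 0.1 in each, and between unlike numbers it was -0.306 to 0.0178. The pairing comes from the titles and this check, and the number was also fitted as a block, with 4 residual degrees of freedom.

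The members and gene lists were chosen with earlier results of these data known. The naming rule gave every library's level for members past the threshold in any comparison and ranges or means for the others (the library levels of Hif1a and Epas1 are given outside it, chosen after their values were seen), up to 4 genes per comparison of the further list of 51 HIF genes, by size of difference, and Arg1 as the check of the gate. The further genes Hk2, Pgk1, Ldha, Pgam1 and Pfkp were named after their values were seen. Dendritic cell, neutrophil, melanocytic, epithelial, fibroblast and macrophage core markers are reported. T cell, NK cell, B cell, endothelial and platelet lists were summed as well. Among these and the fibroblast list the highest sum in any library was 64.7 FPKM, for fibroblast markers in MC38 RFP+ cells. The alternatives were other pseudocounts (0.1 and 5), filters, scalings, array weights, the compared groups alone, the block and each library left out. Leaving out pairs within the block, and the block with macrophage core scaling, were added after seeing the data. Protein sequences are not used here.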

Additional observations from a re-analysis of the deposited data

How the results depend on the processing

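The count of members past the threshold in B16F10, 2 by limma, was 0 with a pseudocount of 0.1, 0 with no filter, 1 with upper-quartile scaling, 1 with scaling to the macrophage core genes, 0 in a fit of the compared groups alone, 4 with array weights (3 higher, 1 lower), and 0 to 2 with 1 library left out. In MC38 the count of 1 was 2 with a pseudocount of 5, 0 with no filter, 2 with quantile normalization, 0 with macrophage core scaling, 0 in the compared groups alone, 4 with the block, 3 with array weights, and 0 to 1 with 1 library left out. On the mean of both tumours the count of 3 was 1 with macrophage core scaling, 10 with the block and 7 with array weights (6 higher, 1 lower). Paired by number, the count of 3 in B16F10 was 0 to 4 with 1 pair left out, the 4 in MC38 were 1 to 8, and the 10 on the mean were 4 to 10. With the block and macrophage core scaling together they were 3, 1 and 4. The block changed no other call between the gates than those given with it. Under macrophage core scaling 3 members turned in B16F10 minus MC38: Vegfa to a log2 of 0.45 in RFP+ and 0.46 in RFP- cells, Pfkfb3 to 0.88 and 0.60, and Pfkfb4 to 0.29 and 0.41. The share of all genes past the threshold is given above without and with the block. For the other settings it is not given, so their counts have no background beside them. The causes of these changes with the setting were not tested.

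The mean differences of Egln3, Adm and Hilpda kept their direction in all 21 alternatives of the fit without added pairs and their call in 20 each, and the exceptions were macrophage core scaling (Egln3 and Hilpda) and no filter (Adm). The calls of Adm and Egln3 within B16F10 ended in 13 and 15 of 22. The count for the difference between tumours was 0 in every alternative, and the counts of members past the threshold in either direction between tumours (22 in RFP+ and 20 in RFP- cells) stayed within 1.5 times. Their split did not: 19 higher and 3 lower in RFP+ and 17 and 3 in RFP- cells became 28 and 0 and 27 and 0 with macrophage core scaling, and the lower members were 5 in each gate with array weights and 6 in RFP- cells without B16F10 RFP- number 11. Under macrophage core scaling 94.5% of all genes in RFP+ and 94% in RFP- cells lay above 0 as well. With 3 libraries a group and no read counts, small differences and the counting error of low genes such as Epas1, Stc2 and Car12 were not detectable. The fit of the compared groups alone does not apply to the mean or difference of tumours, nor the block to B16F10 minus MC38.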
